A study of Mus musculus with 4 samples.

Results

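The nuclear-encoded subunits of the mitochondrial respiratory chain and ATP synthase were followed in the cerebellum of Dicer mutant mice and their control littermates. Members were found by gene name on the array, as names beginning with Nduf followed by a, b, s, v or c, the names Sdha to Sdhd, and names beginning with Uqcr, Cox4 to Cox8 or Atp5. This gave 85 genes (120 probes) of 28631 gene names on the array. A gene was kept when the signal of 1 genotype, mutant or control, was well above background on each of the 4 arrays, which held for 82 members (114 probes) and 18015 genes in all. All 82 were above background in both channels of all 4 arrays, so none was kept through 1 genotype alone. The 3 genes left out were Cox4i2 and Cox8c, whose probes were above background in neither channel of any array, and Cox7b2, above background in 1 mutant and 3 control channels. Of the 82, 77 encode subunits of complexes I to V or the supercomplex factor Cox7a2l. The name rule also caught 5 genes that encode no subunit of these complexes, namely the complex I assembly factors Ndufaf1 and Ndufaf2, the ATP synthase coupling factor B gene Atp5s, the gene Atp5sl of a factor that assembles the membrane arm of complex I, and Cox4nb, a component of a membrane complex of the endoplasmic reticulum.

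Controls were mGfap-Cre; Dicer +/flox and mutants mGfap-Cre; Dicer flox/flox, both at postnatal day 30 and of mixed strain background, per the labels. Both genotypes carried the Cre recombinase driven by a mouse Gfap promoter, and the controls carried 1 floxed allele of Dicer, which encodes the nuclease that cuts microRNA precursors. Total RNA of whole cerebellum (500 ng a channel, linearly amplified) from 4 littermate pairs was hybridised to 4 arrays with 2 colours, 1 pair an array, with the mutant in Cy5 in pairs 1 and 3 and in Cy3 in pairs 2 and 4. Whole cerebellum holds many cell types in which this promoter is not active, and fewer cells of a type and less RNA per cell cannot be told apart in it. The labels do not say whether a channel held RNA of 1 animal or of several. Of 41174 probes, 26388 to 28901 a mutant channel and 26280 to 27710 a control channel were above background. The Purkinje neuron genes Pcp2 and Calb1 and the granule neuron gene Gabra6 were above background in every channel, as the tissue label requires. Dicer1 stood at 0.03 ± 0.21 (adjusted p = 0.964), and whether its probe lies in the deleted stretch is not known here, so it does not check the deletion.

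The respiratory chain passes electrons from NADH (complex I) and succinate (complex II) through coenzyme Q to complex III, and from there through cytochrome c to complex IV, which reduces oxygen. Complexes I, III and IV pump protons across the inner mitochondrial membrane, and complex V, the ATP synthase, uses the gradient to make ATP. Most subunits are encoded in the nucleus and a small set in mitochondrial DNA. Several subunits of complex IV exist as a widespread form and as forms restricted to certain tissues, heart and skeletal muscle among them. In brain, most ATP is made by this pathway.

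Transcripts of the respiratory chain were measured at nearly the same level in mutant and control cerebellum, with 1 gene of complex IV, Cox8b, standing apart. Values are log2 ratios of mutant over control, as mean ± SD over the 4 pairs, and adjusted p values are from limma with Benjamini-Hochberg adjustment over 18015 genes, with genes called at an adjusted p under 0.05. Among the 82 members 1 was higher (Cox8b) and 0 were lower, where 0.600% of all genes tested were higher, 0.450% lower and 1.05% either. At an unadjusted p under 0.05 there were 3 members (3.66%), Cox8b, Ndufc2 and Ndufa6, against 9.17% of all genes. The median ratio of the members was 0.040, with the middle of the range from -0.004 (lower quartile) to 0.078 (upper quartile), against -0.002 over all genes. Above 0 lay 59 members and below 0 lay 23, against 8897 and 9118 of all genes. This direction turned with median centring of the arrays, where the members' median was -0.148 and that of all genes -0.132. A mean ratio beyond 0.2 either way was seen for 2 members (2.44%), Cox8b and Ndufc2, against 8.98% of all genes. The median SD between pairs was 0.121 for the members and 0.157 for all genes.

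**Figure D1:**
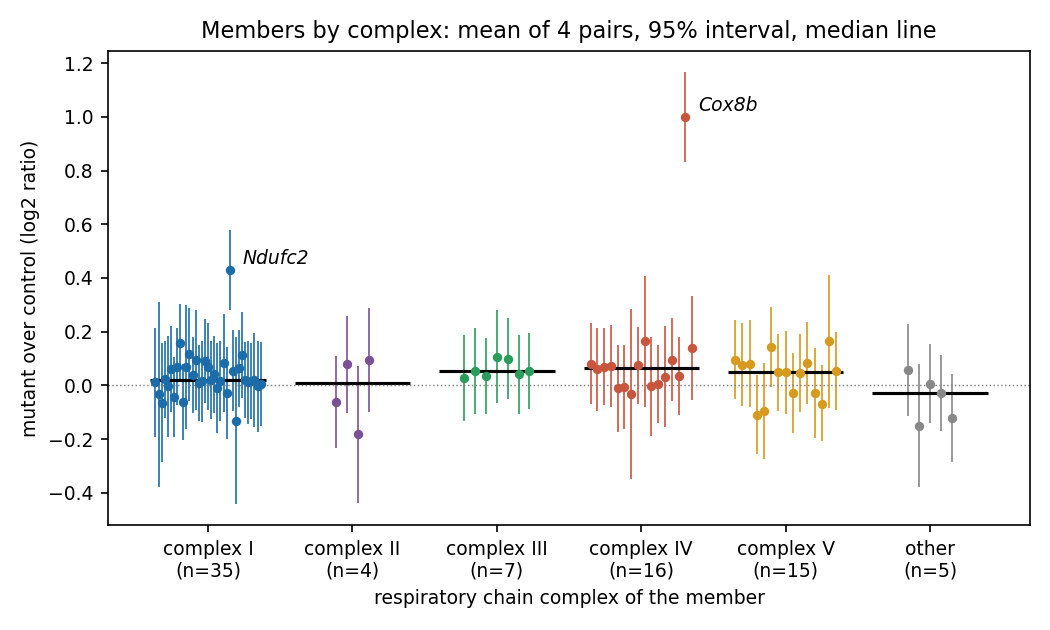
Mean log2 ratio of mutant over control (vertical axis) of the 82 members, grouped by complex (horizontal axis), with points for genes, vertical lines for the 95% interval of the fit and black lines for the median of a complex. Cox8b at 1.00 lies above every other member, Ndufc2 at 0.43 is next, and the medians of the groups lie between -0.028 and 0.065.

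Cox8b encodes the heart and muscle form of subunit 8 of cytochrome c oxidase, the terminal enzyme of the chain. Its ratios were 0.68, 1.16, 0.77 and 1.39 in pairs 1 to 4. Every mutant was above its littermate, and in each pair Cox8b was the highest of the 82 members. On the log2 scale of normalized channel intensity, the mutants read 9.47, 9.56, 8.69 and 9.08 and their littermates 8.79, 8.39, 7.92 and 7.69. The groups overlapped across pairs, since the mutant of pair 3 read lower than the control of pair 1. The mean was 1.00 ± 0.33 (2.00-fold, 95% interval 0.83 to 1.17, adjusted p = 0.00656), which placed Cox8b at rank 33 by p among 18015 genes. It rested on 1 probe, at chromosome 7, 148084852 to 148084911 (mm9). The ratio was 0.72 where the mutant was in Cy5 and 1.27 where it was in Cy3. It was not called when the channels were compared as separate samples, without the pairing (adjusted p = 0.201). Its intensities were low, and among the members only the Cox6a2 probe read lower. With the processed signals the ratio of Cox8b was 1.25 (adjusted p = 0.0255 in limma), so its size depended on the background treatment.

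Subunit 8 has a widespread form, Cox8a, beside Cox8b, and the promoters of both are shown because only the transcript of one was called. The sequences are RefSeq's (GRCm38.p6), the 150 bases before the annotated start, printed 5′ to 3′ on the gene's strand. That of Cox8b is chr7:140900447-140900596 (minus strand) and that of Cox8a chr19:7217617-7217766 (minus strand).
Cox8b: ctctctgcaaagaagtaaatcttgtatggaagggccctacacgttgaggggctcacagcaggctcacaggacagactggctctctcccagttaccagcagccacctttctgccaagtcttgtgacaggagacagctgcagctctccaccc
Cox8a: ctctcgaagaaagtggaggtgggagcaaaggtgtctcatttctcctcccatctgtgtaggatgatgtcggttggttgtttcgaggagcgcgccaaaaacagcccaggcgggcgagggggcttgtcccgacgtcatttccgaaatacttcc
In the window of 250 bases before to 50 bases after the start, Cox8b held 2 CpG dinucleotides and Cox8a 19. The other 68 matched members held 5 or more, with a median over the 69 of 19, and the median over 27025 genes was 8. The window of Cox8b was 48.3% G and C and that of Cox8a 56.0%.

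The other isoforms of complex IV subunits were not called. Cox8a stood at 0.29, -0.26, 0.26 and -0.15 in pairs 1 to 4, with a mean of 0.04 ± 0.28 (adjusted p = 0.936). Its sign followed the dye order and no direction was shared by the pairs. Cox6a2, the muscle form of subunit 6a, stood at -0.01 ± 0.13, and its widespread form Cox6a1 at 0.07 ± 0.35. Cox7a1, the muscle form of subunit 7a, stood at 0.28, 0.33, 0.24 and -0.20, mean 0.16 ± 0.24 (adjusted p = 0.744), and its widespread form Cox7a2 at -0.00 ± 0.16. The testis form of subunit 6b, Cox6b2, ran from -0.43 to 0.57 over the pairs (mean -0.03 ± 0.42), and Cox6b1 stood at -0.01 ± 0.14. Cox4i1 (0.08 ± 0.15) and Cox7b (0.03 ± 0.14) also did not pass. Of the 13 genes kept that are one of several isoforms of a complex IV subunit or of ATP synthase subunit c, 1 was called. Whether the ratio of Cox8b differed from those of the other muscle forms was not tested.

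**Figure D2:**
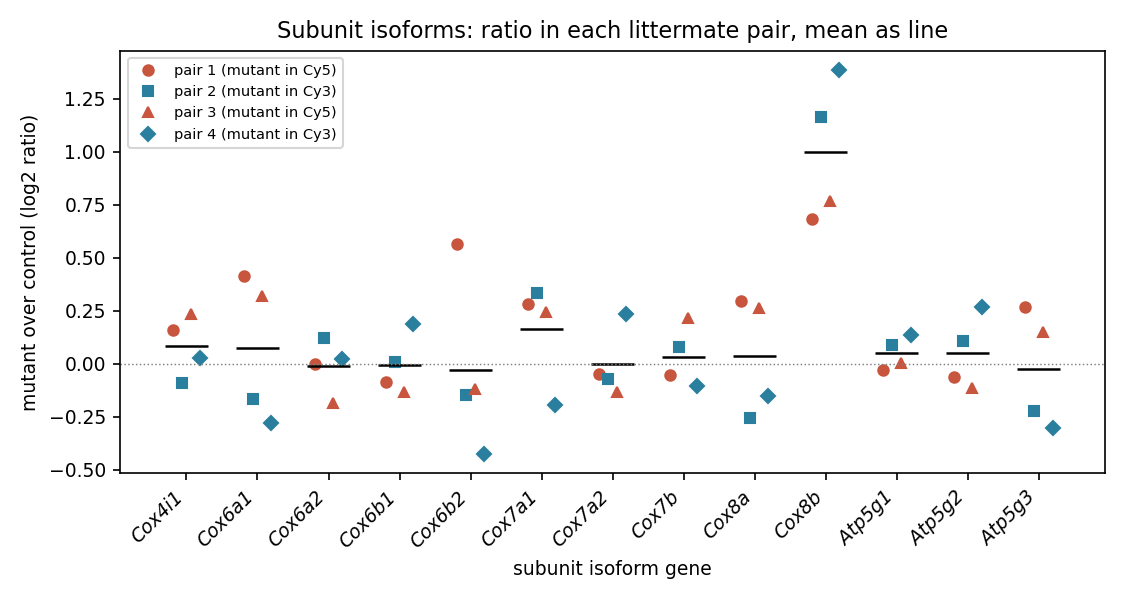
Log2 ratio of mutant over control in each littermate pair (points, with marker and colour for the dye of the mutant) for isoform genes of complex IV and of ATP synthase subunit c, with the mean as a line. The 4 points of Cox8b lie between 0.68 and 1.39, while the widespread form Cox8a runs from -0.26 to 0.29.

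The rest of complex IV lay near 0. Of the 16 members kept in complex IV, Cox8b included, 12 were above 0 and 4 below. Their median was 0.065 and their pair medians were 0.080, 0.068, 0.074 and 0.053. Subunits with a single form were Cox5a (0.06 ± 0.09), Cox5b (0.07 ± 0.02), Cox6c (0.08 ± 0.08) and Cox7c (0.10 ± 0.10), none called. Cox5b was above 0 in all 4 pairs, at 0.09, 0.04, 0.07 and 0.09. Ndufa4, named for complex I and now placed in complex IV, stood at 0.14 ± 0.16 (adjusted p = 0.725). Cox7a2l, which joins complexes III and IV into supercomplexes, stood at 0.00 ± 0.13.

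In complex I, the entry point for electrons from NADH, 0 of 35 genes were called, with 26 above 0, 9 below and a median of 0.021. The nearest to the threshold was Ndufc2, an accessory subunit of the membrane arm. Its ratios were 0.51, 0.29, 0.50 and 0.42 in pairs 1 to 4. The mutants read 15.99, 15.94, 16.00 and 16.03 on the log2 intensity scale and the controls 15.48, 15.65, 15.51 and 15.61, so all mutants lay above all controls. The mean was 0.43 ± 0.10 (1.35-fold, 95% interval 0.28 to 0.58, adjusted p = 0.051), at rank 191 by p. Ndufc2 passed in 6 of 18 alternatives, at adjusted p values of 0.0216 to 0.046, and over all 18 the adjusted p ran from 0.0216 to 0.56, the last with median centring, where its ratio was 0.24. Its probe lies at chromosome 7, 104555383 to 104555442 (mm9).

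The 7 core subunits of complex I, which bind NADH and carry the flavin and iron-sulphur clusters, had a median of 0.016. The NADH-binding flavoprotein gene Ndufv1 stood at -0.00 ± 0.16, and the iron-sulphur subunits Ndufs1 at 0.06 ± 0.06, Ndufv2 at 0.00 ± 0.15, Ndufs7 at 0.02 ± 0.06 and Ndufs8 at 0.02 ± 0.14. The 28 accessory subunits had a median of 0.022. Ndufa6 was above 0 in all pairs (0.04, 0.22, 0.12 and 0.26, mean 0.16 ± 0.10, adjusted p = 0.483), as was Ndufs4, an accessory subunit of the NADH-oxidising arm (0.11 ± 0.08, adjusted p = 0.727). The acyl carrier subunit Ndufab1 stood at 0.04 ± 0.06.

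Complex II, succinate dehydrogenase, is wholly encoded in the nucleus, and none of its 4 genes was called. The catalytic subunits were the flavoprotein Sdha (-0.06 ± 0.11) and the iron-sulphur protein Sdhb (0.08 ± 0.12). The membrane anchors were Sdhc, the lowest of all 82 members, and Sdhd (0.10 ± 0.23). Sdhc read -0.11, -0.30, -0.46 and 0.13 in pairs 1 to 4. Pair 4 went against the other pairs, and the mean of -0.18 ± 0.26 did not pass (adjusted p = 0.726).

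All 7 members of complex III, which hands electrons from coenzyme Q to cytochrome c, had means above 0, from 0.03 (Uqcr) to 0.11 (Uqcrc2). None was called, and the median was 0.053 and turned to -0.140 with median centring. Cyc1, a subunit of complex III outside the name rule, stood at -0.02 ± 0.20 (adjusted p = 0.981). The Rieske iron-sulphur protein gene Uqcrfs1 stood at 0.21, -0.01, 0.10 and 0.10 (mean 0.10 ± 0.09, adjusted p = 0.755). The core proteins Uqcrc1 (0.03 ± 0.03) and Uqcrc2 (0.11 ± 0.19) and the accessory subunits Uqcrq (0.05 ± 0.05) and Uqcrb (0.05 ± 0.09) did not pass. The pair medians were 0.105, -0.001, 0.093 and 0.037.

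Of the 15 genes of ATP synthase, 10 were above 0 and 5 below, with a median of 0.049 and none called. The pair medians alternated with the dye order, at 0.123, -0.068, 0.139 and -0.054. By the brightest probes, this was widest in the F1 part, which holds the catalytic sites. Pair medians there were 0.321, -0.294, 0.199 and -0.129 over 5 genes. The catalytic subunit gene Atp5b read 0.52, -0.29, 0.36 and -0.28 (mean 0.08 ± 0.42), and Atp5c1, the central stalk gamma subunit, 0.43, -0.33, 0.36 and -0.13 (mean 0.08 ± 0.37). Both of these probes were high where the mutant was in Cy5 and low where it was in Cy3. For Atp5b this rests on the brightest of 3 kept probes. The others read 0.16, -0.43, -0.27 and 0.28, and -0.01, -0.28, -0.36 and 0.40, which do not alternate with the dye. The F1 alpha subunit gene Atp5a1 read 0.321, -0.080, 0.199 and -0.054 by its brightest probe. Its other kept probe read 0.071, 0.092, 0.063 and 0.205, which does not alternate either. Atp5d, the delta subunit of the central stalk, was below 0 in every pair (-0.08, -0.18, -0.12 and -0.06, mean -0.11 ± 0.05, adjusted p = 0.722), as was the membrane subunit Atp5k (-0.07 ± 0.02). The 4 genes of the peripheral stalk, which holds the catalytic head still, had a median of 0.068, and Atp5f1 among them stood at 0.14 ± 0.15 (adjusted p = 0.567). The 3 genes of subunit c, which forms the rotor ring, were Atp5g1 (0.05 ± 0.08), Atp5g2 (0.05 ± 0.17) and Atp5g3 (-0.03 ± 0.28). The membrane subunit Atp5l stood at 0.16 ± 0.25.

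Part of the spread between pairs went with the dye. In 24 members (29.3%) the sign split exactly by dye order, against 17.9% of all genes tested, 15 of them above 0 where the mutant was in Cy5 and 9 below. The widest split was in Uqcrh, the hinge protein of complex III, at 0.53, -0.51, 0.55 and -0.41 in pairs 1 to 4. Its mean with both dye orders was 0.04 ± 0.58, since the dyes were balanced. These values are of the brightest Uqcrh probe, and the other kept probe split the same way at smaller size (0.20, -0.18, 0.19 and -0.07). The same order was seen for Cox6a1, at 0.37 where the mutant was in Cy5 and -0.22 where it was in Cy3. The fit estimated this as a dye term, which exceeded 0.2 in size for 10 members (12.2%) and for 7.61% of all genes. The same sign in all 4 pairs was seen for 9 members (11.0%), 7 above 0 and 2 below, against 15.0% of all genes.

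**Figure D3:**
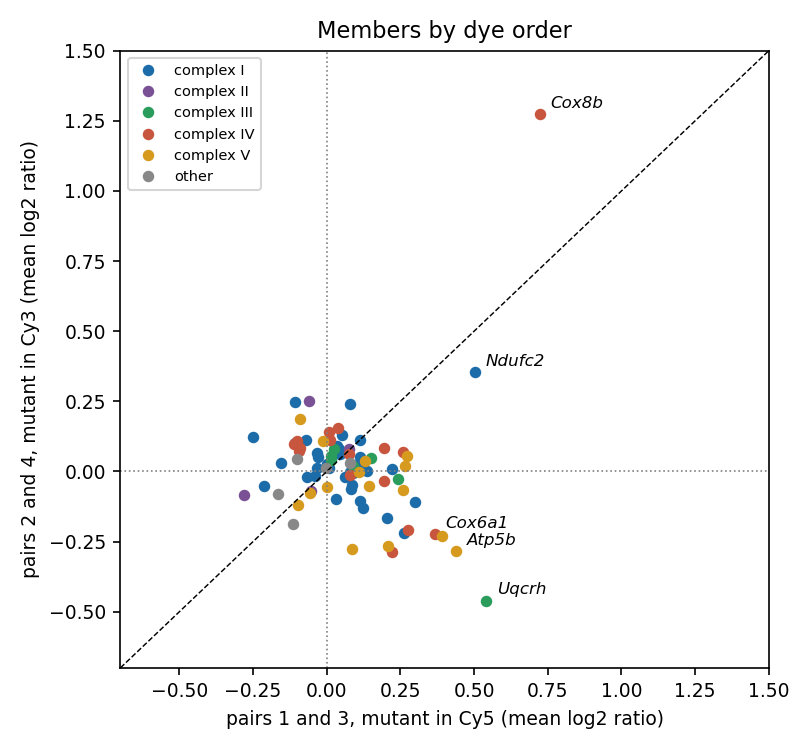
Mean log2 ratio of each member over the pairs with the mutant in Cy5 (horizontal axis) and over the pairs with the mutant in Cy3 (vertical axis), 1 point a gene coloured by complex, with a dashed line of equality. Uqcrh (0.54 and -0.46), the brightest Atp5b probe (0.44 and -0.29) and Cox6a1 (0.37 and -0.22) lie in the quadrant of opposite signs, and Cox8b (0.72 and 1.27) lies far above 0 on both axes.

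The arrays limited how small a difference could be seen. The 95% interval lay within -0.5 to 0.5 for 80 members (97.6%) and 93.2% of all genes. Among the 80 members other than Cox8b and Ndufc2, the highest upper bound was 0.41 (Atp5l). Differences inside a gene's interval were not excluded by its values. Several kept probes were present for 26 genes, with a median spread between probes of 0.027 and a largest of 0.142. In 7 of them (Atp5b, Uqcrc1, Ndufb8, Ndufab1, Ndufs6, Cox7a2 and Ndufb2) the probes differed in sign, as in Atp5b, from -0.07 to 0.08, which is inside its SD between pairs.

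**Figure D4:**
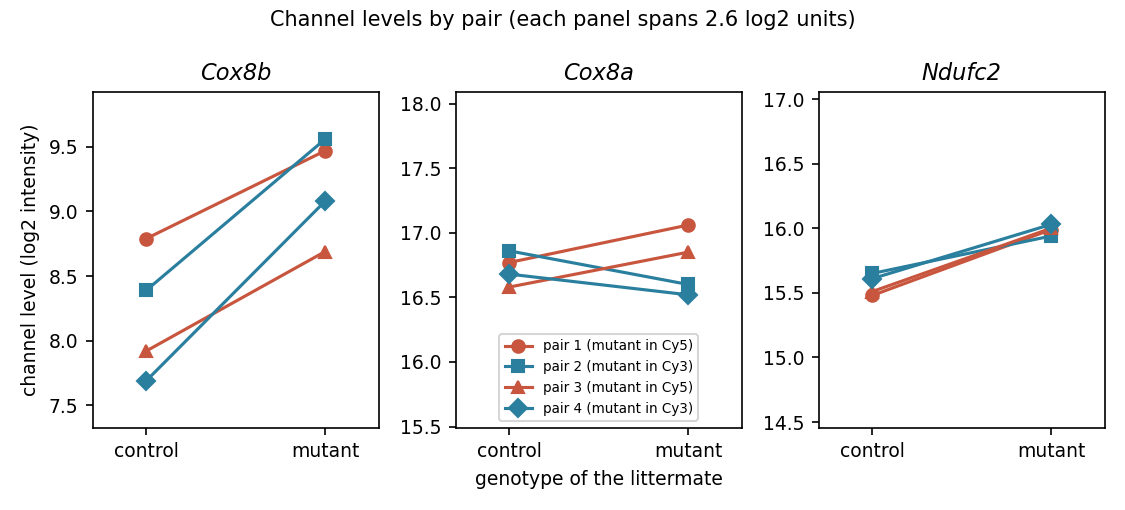
Normalized log2 channel intensity of Cox8b, Cox8a and Ndufc2 in the mutant and the control of each pair, with a line joining littermates. Mutants lie above their littermates in all pairs for Cox8b (8.69 to 9.56 against 7.69 to 8.79) and Ndufc2 (15.94 to 16.03 against 15.48 to 15.65), and the lines of Cox8a cross. Levels of different probes are not comparable.

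Many nuclear genes of the chain share promoter elements bound by NRF1, ETS factors such as GABPA, YY1 and ERRalpha. RefSeq promoter windows (GRCm38.p6, 250 bases before to 50 after the start) were matched for 69 of the 82 members and searched on both strands. The NRF1 palindrome, printed in capitals in Atp5g2 below, was in 5 of 69 members (7.25%) and 1.07% of 27025 genes. A looser NRF1 form, with any bases at its central pair and so including the former, was in 19 (27.5%) and 7.0%. The YY1 letters AAGATGGC were in 11 members (15.9%) and 3.19% of genes, the ETS letters CCGGAAGT in 5 (7.25%) and 4.31%, and the ERRalpha letters TCAAGGTCA in 2 (2.90%) and 0.466%. Any of these was in 33 members (47.8%) and 13.7% of genes, while the members' windows had a median of 58.7% G and C against 53.3%, so base composition differs too. Neither Cox8b nor Ndufc2 held any of them, which says only that these letters are not in these windows. In their own complexes, any of these letters were in 2 of 13 matched members of complex IV (15.4%) and 16 of 31 of complex I (51.6%). The 150 bases before the start are shown for Ndufc2, the member nearest the threshold, at chr7:97399853-97400002 (plus strand). They are also shown for members with an NRF1 match, marked by capitals, namely Atp5g2, chr15:102671048-102671197 (minus strand), Atp5k, chr5:108434400-108434549 (minus strand), Ndufa11, chr17:56717612-56717761 (plus strand), and Cox6a1, chr5:115348959-115349108 (minus strand), where the capitals are a match to the looser form.
Ndufc2: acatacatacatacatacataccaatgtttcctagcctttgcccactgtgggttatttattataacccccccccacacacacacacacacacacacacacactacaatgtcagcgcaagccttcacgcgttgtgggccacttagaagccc
Atp5g2: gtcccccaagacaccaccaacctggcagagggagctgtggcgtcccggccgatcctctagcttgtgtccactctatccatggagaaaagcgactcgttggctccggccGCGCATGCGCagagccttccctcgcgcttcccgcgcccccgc
Atp5k: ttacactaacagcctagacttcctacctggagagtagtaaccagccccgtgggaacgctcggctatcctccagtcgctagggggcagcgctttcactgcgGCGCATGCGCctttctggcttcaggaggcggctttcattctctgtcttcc
Ndufa11: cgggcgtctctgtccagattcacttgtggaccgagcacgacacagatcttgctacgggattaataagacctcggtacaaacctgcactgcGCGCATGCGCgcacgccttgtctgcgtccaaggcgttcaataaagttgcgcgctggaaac
Cox6a1: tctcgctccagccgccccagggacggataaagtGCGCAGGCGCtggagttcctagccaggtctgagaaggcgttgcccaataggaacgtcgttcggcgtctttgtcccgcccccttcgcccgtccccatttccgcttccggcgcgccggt
The match began 42 bases before the start in Atp5g2, 50 in Atp5k, 60 in Ndufa11 and 117 in Cox6a1. The whole window of Cox6a1 also held the NRF1 palindrome, outside the bases shown, so Cox6a1 is among the 5 members counted with it. None of these 4 members was called, with means of 0.05 ± 0.17 for Atp5g2, -0.07 ± 0.02 for Atp5k, -0.07 ± 0.28 for Ndufa11 and 0.07 ± 0.35 for Cox6a1.

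**Figure D5:**
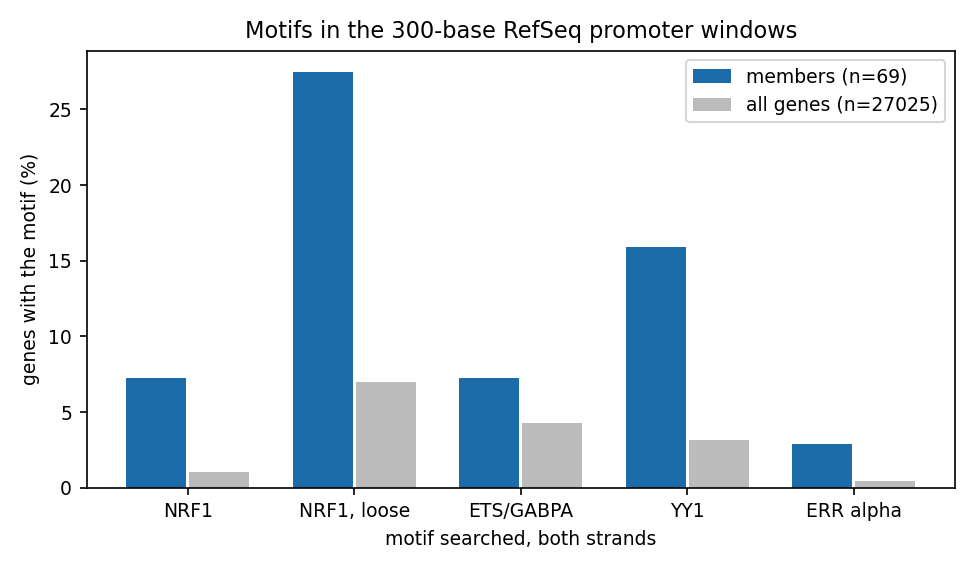
Share of promoter windows (percent) that hold the letters of each motif, for the 69 matched members and for all 27025 genes with a window. The looser NRF1 form stands at 27.5% against 7.0%, and the YY1 letters at 15.9% against 3.19%.

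Genes that serve the chain had list medians near 0. Of 41 assembly and import factors of complexes I to V tested, 0 were called, with a median of 0.008. The complex I assembly factors Nubpl (0.18 ± 0.07, adjusted p = 0.457) and Ndufaf4 (0.15 ± 0.08, adjusted p = 0.539) had the smallest p values, and Timmdc1, another, had the highest ratio, from -0.13 to 1.05 over the pairs (mean 0.33 ± 0.52, adjusted p = 0.72). Of 18 carriers and further subunits outside the name rule, 0 were called; Etfdh, which passes electrons from fatty acid oxidation to coenzyme Q, stood at 0.33 ± 0.24 (adjusted p = 0.135) and cytochrome c (Cycs) at 0.12 ± 0.05 (adjusted p = 0.676). Of the 13 subunits encoded in mitochondrial DNA, 2 had a probe under their names, CYTB (0.02 ± 0.18) and COX2 (-0.01 ± 0.11). The file places the COX2 probe on chromosome 1, so whether it reads the mitochondrial transcript or a nuclear copy is not known and its value may not be that of the subunit. Among 21 regulators of mitochondrial gene expression 0 were called, with a median of 0.015. Tfb1m, a mitochondrial ribosomal RNA methyltransferase, stood at 0.25 ± 0.18 (adjusted p = 0.224) and the mitochondrial DNA packaging factor Tfam at -0.10 ± 0.12. The 25 genes of pyruvate dehydrogenase and the citric acid cycle had a median of 0.019 and 0 calls, with Fh1 at 0.16 ± 0.08 and Suclg1 at 0.16 ± 0.05. The highest ratio of that list was that of Idh2, a mitochondrial isocitrate dehydrogenase, at 0.45, 0.07, 0.11 and 1.06 in pairs 1 to 4 (mean 0.43 ± 0.46, adjusted p = 0.544). The list of exchange, uncoupling and antioxidant proteins held 20 entries, with Slc25a27 counted again under its other name Ucp4. Over these entries the median was 0.002, with 0 calls. The ADP/ATP carrier Slc25a5 stood at 0.20 ± 0.13 (adjusted p = 0.383) and the outer membrane channel Vdac2 at 0.11 ± 0.13.

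Glycolysis was the only one of these lists with called genes, with 2 of 18 higher and 0 lower, against 0.600% and 0.450% of all genes tested. The list as a whole was not shifted upward, with 8 of 18 genes above 0 and a median of -0.030. Hk2, which phosphorylates glucose, read 0.84, 0.78, 0.94 and 0.53 in pairs 1 to 4 (mean 0.77 ± 0.17, adjusted p = 0.0142). Pfkfb3, which makes the activator of phosphofructokinase, read 0.53, 1.18, 0.42 and 0.68 (mean 0.70 ± 0.34, adjusted p = 0.05, just under the threshold before rounding). Leaving out replicate 1 ended the call of Hk2 (adjusted p = 0.0743), as did leaving out replicate 3 (adjusted p = 0.0896). Pfkfb3 passed in 10 of 18 alternatives, and its adjusted p was 0.219 and 0.177 without these replicates.

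Glial marker genes differed between the genotypes in the same samples. Of 14 mature astroglial markers 5 were lower and 2, Gfap and Aldh1l1, were higher, against 0.450% lower and 0.600% higher of all genes tested. Their median was -0.48, and their summed linear channel intensity was 244200 to 292500 in mutants and 323700 to 357100 in controls. Of 10 markers of immature or progenitor glia 5 were higher and 0 lower, against the same shares of all genes. Their median was 0.56, with sums of 78010 to 114900 in mutants and 35580 to 52070 in controls. These sums are weighted to the brightest probes, and their ranges are taken over all pairs without the pairing. No marker of Purkinje neurons (12 genes, median 0.00), granule neurons (12 genes, median 0.02), oligodendrocytes (15 genes, median -0.26), microglia (12 genes, median 0.02), endothelium (9 genes, median -0.08) or choroid plexus (7 genes, median 0.14) was called. Uncalled lists were not all even, since 1 of 15 oligodendrocyte markers and 0 of 9 endothelial markers were above 0. The pair medians of the choroid plexus markers were 0.117, -0.589, 0.383 and 0.594, so the content of this tissue varied between the channels of a pair. The part of these differences in marker genes in the ratio of Cox8b was not tested.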

How the data were processed

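The deposited array files hold the intensities of spots and their local background in Cy3 and Cy5, from Agilent Feature Extraction 10.5.1.1, and a log10 ratio made from its processed signals, per the file headers; probe coordinates refer to mm9. The series' deposited value table holds the same log10 ratios, with scale, centring and direction matched to the files (largest difference 4.84e-06, column medians 0). Mean intensities were corrected with limma 3.58.1 (R 4.3.3) normexp (offset 50), with outlier-flagged spots (143 to 225 an array) left out, and loess-normalized within arrays. Log2 ratios were fitted with dye and genotype terms, moderated variances (2 residual and 3.45 prior degrees of freedom) and Benjamini-Hochberg adjustment over 18015 genes. The brightest kept probe stood for a gene. Littermates shared an array, per the labels, so the fit is paired. No member was flagged or saturated, and 4 arrays limit the precision.

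Named genes were called members, in each complex the 3 of smallest p and the highest and lowest, all isoform genes, members whose probes differed in sign, 2 genes of smallest p of each other list with its called genes, and Dicer1; examples beyond this rule were chosen for their role or pattern after their values were seen. A gene that the rule names is not reported here. The members and lists were chosen with earlier results of these data known. Motifs were searched in the RefSeq promoter table. The code was tested on simulated data. The 18 alternatives varied background, spot signal, normalization, dye term, variances, filter, probes, membership, pairing and replicates.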

Additional observations from a re-analysis of the deposited data

Results flagged for a closer look

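Cox7a1, the muscle form of subunit 7a of cytochrome c oxidase, stood at -0.195 in pair 4 against 0.24 to 0.33 in pairs 1 to 3. The gap to the nearest pair was 0.831 of the whole range, just past Dixon's 95% limit for 4 values. It was 1 of 42 genes tested in this way, and chance alone passes this limit in about 1 of 20.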

How the results depend on the processing

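Cox8b was called in 17 of 18 alternatives (ratio 0.86 to 1.25, adjusted p = 2.71e-06 to 0.201), and no member was called lower in any. The alternatives are not all distinct. The processed signals and the deposited value table gave the same values, and membership by current symbol gave 108 genes higher and 81 lower, as in the main fit. Without the pairing (no replicate block), 1 member was higher, Ndufc2 in place of Cox8b (adjusted p = 0.201). The count of higher members was 2, Cox8b and Ndufc2, with median spot signals, no dye term, an intensity trend with robust variances, the mean over probes and no filter. The median of complex IV was 0.050 without background subtraction, 0.026 when flagged spots were removed after the background fit, 0.040 with median spot signals and 0.035 with no filter; that of complex I was 0.040 with median spot signals. Leaving out 1 replicate gave 0.048 to 0.075 for complex IV. With median centring the medians were -0.166, -0.180, -0.140, -0.123 and -0.140 for complexes I to V and -0.148 over all members, against -0.132 over all genes, and 25 of 34 uncalled named members changed sign; 0 to 9 did in the other alternatives. Over all genes, 108 were higher and 81 lower. Removing flagged spots after the background fit gave 50 and 32, median centring 117 and 245, and the processed signals 88 and 53. Leaving out a replicate gave 44 and 13 (replicate 1), 127 and 114 (replicate 2), 58 and 24 (replicate 3), or 170 and 98 (replicate 4). Causes of these differences were not tested.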

Other observations

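The genes beside Cox8b and Ndufc2 were looked up after the values had been seen, by probe position on mm9. Next to Cox8b, Psmd13 (12391 bases away) stood at -0.03 ± 0.37, Sirt3 at -0.00 ± 0.05 and Pgghg at -0.28 ± 0.12 (adjusted p = 0.214 in limma), and none was called. Next to Ndufc2, Thrsp, a gene of lipid synthesis 10179 bases away, rose by 1.28 ± 0.18 (adjusted p = 0.00656 in limma). Alg8 on the other side, 15959 bases away, stood at 0.05 ± 0.06 and was not called.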
